A study of Mus musculus with 12 samples.

Results

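The genes described here are 10 genes of MHC class II antigen presentation, chosen by symbol: Cd74, H2-Aa, H2-Ab1, H2-Eb1, H2-DMa, H2-DMb1, H2-DMb2, H2-Oa, H2-Ob and Ciita. All 10 were among the 17536 genes listed in the deposited table. The filter on low counts kept 13489 genes and 9 of the 10; H2-Oa, with 0 to 5 estimated counts in a library, was left out of the tests. RNA was sequenced from the hearts of ICR mice, an outbred stock, all 10 weeks old, in 12 libraries that form 4 groups of 3. The control group is labelled only as control, and the busulfan group received busulfan at 20 mg/kg. Busulfan is an alkylating drug used to clear the bone marrow before transplantation. The third group is labelled B+Con-FMT and the fourth B+AOS10mg/kg-FMT; they are called control-FMT and AOS-FMT here. The labels do not spell out B, AOS or FMT, nor give a busulfan dose for these FMT groups, and they do not say whether the libraries of a group came from separate animals, so p-values measure the spread between these libraries. The series asks how FMT acts on hearts damaged by busulfan.

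MHC class II molecules are pairs of an alpha and a beta chain that show peptides from the endosomes to CD4 T cells. Mice have the I-A molecule, made of H2-Aa and H2-Ab1, and in some strains the I-E molecule, made of H2-Ea and H2-Eb1. New pairs bind the invariant chain Cd74, which fills the groove and takes them to the endosome, where H2-DM (H2-DMa with an H2-DMb chain) exchanges the last invariant chain fragment for peptides and H2-O (H2-Oa with H2-Ob) restrains H2-DM. Ciita is the coactivator that turns these genes on together, through promoter elements named the X and Y boxes. In the heart the carriers of class II are mainly macrophages and dendritic cells.

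The 8 H2 members lie on chromosome 17 (RefSeq, GRCm38.p6), from H2-Oa at 34092379 to 34095234 to H2-Eb1 at 34305867 to 34316674. Their promoters are shown because the Y box, a short element shared by class II genes, can be read in them. RefSeq promoter windows were found for 7 of the 10 members. The letters TGATTGG, which hold the reversed CCAAT of a Y box, were searched on both strands in the 250 bases before each start, together with GNAAC, letters from the X box region, placed 15 to 40 bases ahead of them; the motifs do not overlap. The letters were chosen after the sequences had been seen. Capitals mark GNAAC and TGATTGG, each line is 67 bases read toward the gene, and the sequences are those of the reference, not of these mice.
H2-Aa: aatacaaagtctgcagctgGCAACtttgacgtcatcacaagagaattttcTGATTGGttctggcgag
H2-Eb1: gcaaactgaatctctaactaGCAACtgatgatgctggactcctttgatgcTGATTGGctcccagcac
H2-DMb1: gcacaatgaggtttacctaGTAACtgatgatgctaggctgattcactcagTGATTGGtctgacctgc
H2-DMb2: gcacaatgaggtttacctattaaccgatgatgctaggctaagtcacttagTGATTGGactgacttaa
H2-Oa: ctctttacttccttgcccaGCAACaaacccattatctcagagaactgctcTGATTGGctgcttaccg
H2-Ob: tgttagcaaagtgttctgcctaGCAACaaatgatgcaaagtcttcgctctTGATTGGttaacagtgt

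These stretches are at chr17:34287857-34287923 on the minus strand (H2-Aa), and on the plus strand at chr17:34305756-34305822 (H2-Eb1), chr17:34153078-34153144 (H2-DMb1), chr17:34145107-34145173 (H2-DMb2), chr17:34092284-34092350 (H2-Oa) and chr17:34238796-34238862 (H2-Ob). TGATTGG was present in 7.23% of 32851 promoter windows of the genome and in those of 6 members. GNAAC followed by TGATTGG was present on either strand in 0.609% of the windows. For the members it was counted only as read toward the gene, and was present in the windows of 5, with 23 to 26 bases between the motifs. GNAAC alone was in 79.6% of the windows. Read toward the gene, H2-DMb2 had TGATTGG without GNAAC at that distance, and the 2 windows of H2-DMa held no TGATTGG. The H2-DMb2 stretch lies inside the annotated gene, 34143229 to 34151553, so its window precedes a start within the gene. A match is a description of the reference letters only.

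The invariant chain and the I-A chains had by far the highest levels of the 10 genes. Over the 12 libraries the mean level per transcript length (TPM, length-scaled transcripts as the authors computed them), was 334 for Cd74, 165 for H2-Aa, 118 for H2-Ab1, 14.9 for H2-Eb1, 9.52 for H2-DMa, 6.72 for H2-DMb1 and 4.50 for H2-DMb2. Ciita had 0.680 TPM, H2-Ob 0.473 TPM and H2-Oa 0.406 TPM. The order Cd74, H2-Aa, H2-Ab1 held in 12 of 12 libraries, and H2-DMa was above H2-DMb1 and H2-DMb2 above Ciita in 12 of 12. Neighbours that changed places were H2-Eb1 and H2-DMa, with H2-Eb1 higher in 7 of 12 libraries, H2-DMb1 and H2-DMb2 (10 of 12), Ciita and H2-Ob (11 of 12), and H2-Ob and H2-Oa (7 of 12). Summed over the 10 genes, the mean was 601 ± 33.5 TPM (SD, n = 3) for control, 406 ± 24.5 for busulfan, 790 ± 229.6 for control-FMT and 820 ± 147 for AOS-FMT. The 3 busulfan libraries, at 382 to 431 TPM, were below the other 9, which ran from 570.3 to 1045 TPM. Cd74 is on chromosome 18 at 60803849 to 60812652 and Ciita on chromosome 16 at 10480014 to 10531064 (GRCm38.p6), and all 10 genes are annotated as protein coding.

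**Figure D1:**
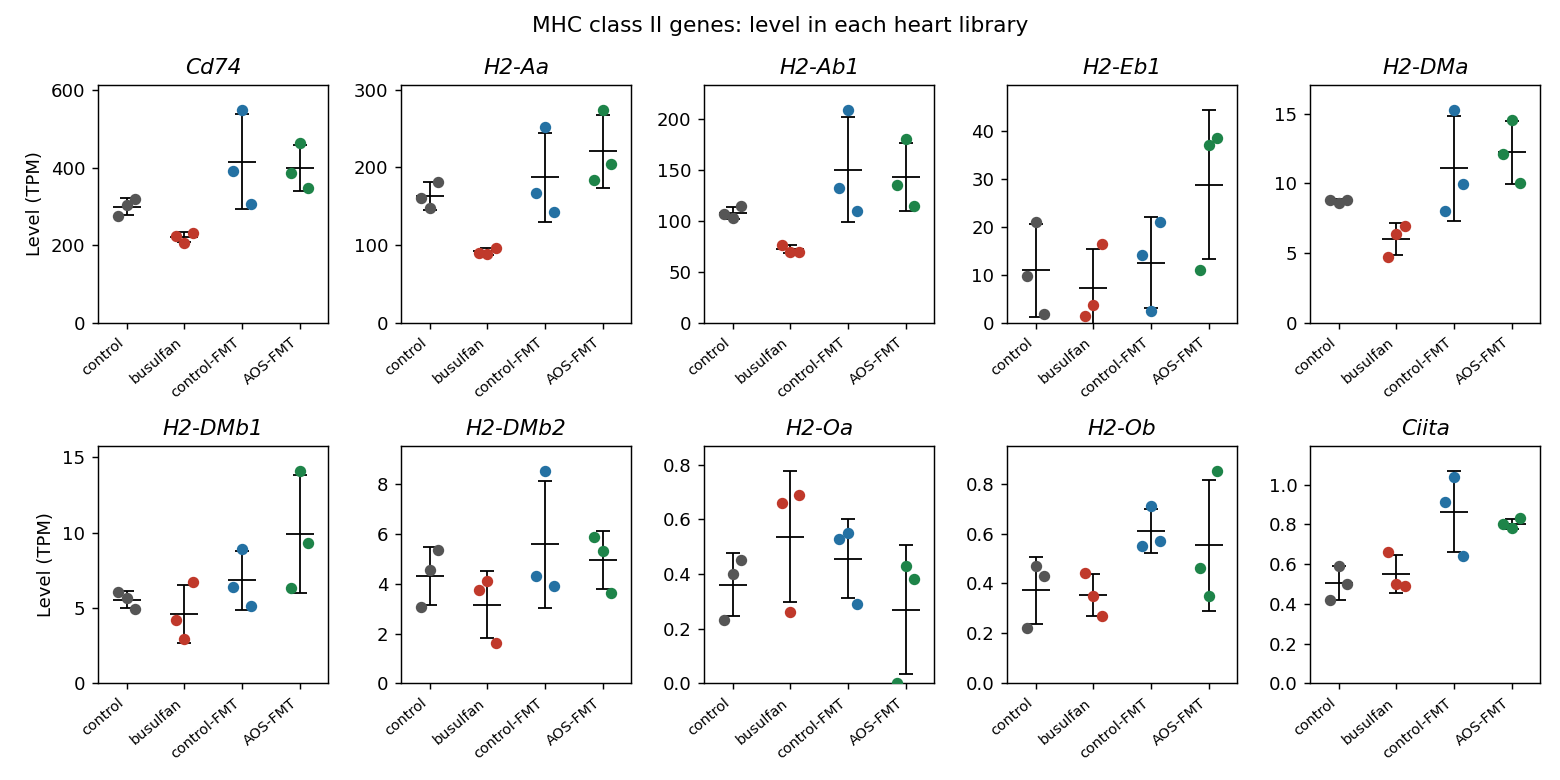
Level of each of the 10 genes in TPM (vertical axis, from 0) in the 4 groups; points are libraries in replicate order, the short line is the mean and the bar 1 SD (n = 3), with bars that reach below 0 ending at 0. Cd74, H2-Aa, H2-Ab1 and H2-DMa are lower in all 3 busulfan libraries than in any library of the other groups, while H2-Eb1 varies widely within every group.

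Tests were run on counts with edgeR's quasi-likelihood model, and levels tested there are given as CPM (counts scaled by library size and TMM factor). Between busulfan and control, the question is what the drug changed. Cd74 had 271, 221 and 288 CPM in control replicates 1 to 3 and 190, 170 and 185 CPM in busulfan. The lowest control library stood above the highest busulfan library, and the log2 difference was -0.52 ± 0.19 (SE; adjusted p = 0.356, edgeR with Benjamini-Hochberg adjustment over the genes tested). H2-Aa, the I-A alpha chain, had 134, 91.6 and 140 CPM in control and 65.3, 62.8 and 65.0 CPM in busulfan. The busulfan libraries lay within a few CPM of each other and all below control, with a difference of -0.92 ± 0.22 (edgeR adjusted p = 0.239).

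H2-Ab1, the I-A beta chain, had 95.8, 68.9 and 95.2 CPM in control and 59.6, 52.9 and 50.6 CPM in busulfan, a log2 difference of -0.67 ± 0.24 (edgeR adjusted p = 0.351). H2-DMa, the alpha chain of the peptide exchanger, had 12.2, 9.12 and 11.7 CPM in control and 5.92, 7.47 and 7.78 CPM in busulfan, a difference of -0.64 ± 0.23 (edgeR adjusted p = 0.351). In both genes control replicate 2 was the lowest control library and still stood above busulfan. The other 5 members tested overlapped between the groups. Their differences were -0.63 ± 1.10 for H2-Eb1, -0.36 ± 0.35 for H2-DMb1, -0.51 ± 0.39 for H2-DMb2, -0.17 ± 0.46 for H2-Ob and 0.12 ± 0.25 for Ciita, with edgeR adjusted p-values of 0.678 to 0.931. Ciita had 2.82, 2.89 and 3.17 CPM in the control libraries and 4.004, 2.97 and 2.71 CPM in the busulfan libraries, so the groups overlapped.

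No member passed an adjusted p of 0.05 in busulfan against control with edgeR or limma-voom, where edgeR called 0.0593% of all genes tested. DESeq2 called 1 member, H2-Aa (adjusted p = 0.0137), against 0.882% of all genes. At an unadjusted p under 0.05 edgeR gave 4 of 9 members, Cd74, H2-Aa, H2-Ab1 and H2-DMa, all lower in busulfan, against 5.78% of all genes in that direction; the count was 2 without control replicate 1, whose omission took the p of H2-Ab1 and H2-DMa above 0.05. The same 4 were the members without overlap between the groups, lower in busulfan, against 6.38% of all genes. The median log2 difference of the 9 members was -0.52, with 8 of 9 below 0, and that of all genes tested was -0.01. With the level of atrial transcripts as a covariate, the median was -0.72.

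Control-FMT against busulfan and AOS-FMT against busulfan share the 3 busulfan libraries with the comparison above, so the values are given side by side and are not independent of it. Cd74 had 302, 427 and 234 CPM in control-FMT and 293, 357 and 261 CPM in AOS-FMT. Every one of these 6 libraries was above the busulfan range, with log2 differences of 0.82 ± 0.19 for control-FMT (edgeR adjusted p = 0.999) and 0.74 ± 0.19 for AOS-FMT (edgeR adjusted p = 0.264). H2-Aa had 110, 166 and 92.7 CPM in control-FMT and 118, 179 and 130 CPM in AOS-FMT. Both sets stood above busulfan, by 0.93 ± 0.22 on the log2 scale in control-FMT and 1.15 ± 0.23 in AOS-FMT (edgeR adjusted p = 0.999 and 0.179).

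H2-Ab1 had 93.5, 148 and 76.5 CPM in control-FMT and 93.2, 127 and 79.0 CPM in AOS-FMT. Its log2 differences from busulfan were 0.96 ± 0.24 and 0.87 ± 0.24 (edgeR adjusted p = 0.999 and 0.279). H2-DMa had 8.54, 16.9 and 11.04 CPM in control-FMT and 13.5, 15.6 and 11.1 CPM in AOS-FMT, above busulfan by 0.78 ± 0.23 and 0.92 ± 0.23 (edgeR adjusted p = 0.999 and 0.242). In Cd74, H2-Aa, H2-Ab1 and H2-DMa, replicate 2 was the highest library of control-FMT and also of AOS-FMT. Among the 13489 genes ordered by p in control-FMT against busulfan, Cd74 ranked 2, H2-Aa 5, H2-Ab1 8 and H2-DMa 26. The remaining tested members ranked 793 (H2-DMb2), 1209 (H2-Ob), 1751 (H2-DMb1), 1971 (Ciita) and 6278 (H2-Eb1). None of the genes in that comparison passed the adjustment with edgeR. Cd74, H2-Aa, H2-Ab1 and H2-DMa, in that order, ranked 109, 18, 151 and 86 in AOS-FMT against busulfan. In busulfan against control they ranked 743, 77, 594 and 679. The members were chosen with earlier results of these data known, so the ranks are descriptive only.

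The remaining members differed less from busulfan relative to their error. In control-FMT the log2 differences were 0.49 ± 0.34 for H2-DMb1, 0.70 ± 0.39 for H2-DMb2, 0.70 ± 0.44 for H2-Ob, 0.33 ± 0.25 for Ciita and 0.74 ± 1.10 for H2-Eb1 (edgeR adjusted p = 0.999 for each). In AOS-FMT they were 1.00 ± 0.34 for H2-DMb1, 0.51 ± 0.39 for H2-DMb2, 0.55 ± 0.44 for H2-Ob, 0.17 ± 0.25 for Ciita and 1.93 ± 1.08 for H2-Eb1, with edgeR adjusted p-values of 0.296 to 0.766. H2-Ob, the beta chain of the H2-DM inhibitor, had 0.870, 0.679 and 0.507 CPM in busulfan and 1.02, 1.31 and 1.04 CPM in control-FMT; these are 6 to 10 estimated counts against 12 to 16. It was the fifth member without overlap in that comparison. Ciita had 4.08, 5.16 and 2.93 CPM in control-FMT and 3.61, 3.87 and 3.44 CPM in AOS-FMT, and both ranges overlapped busulfan.

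In control-FMT against busulfan, edgeR and limma-voom called 0.0% of all genes, so no member, and DESeq2, which called 0.0148% of all genes, also called 0 members, its smallest adjusted p being 0.0974 for Cd74. At an unadjusted p under 0.05 edgeR gave 4 of 9 members, all higher in control-FMT, against 1.76% of all genes in that direction. Without overlap and higher were 5 of 9 members, against 5.41% of all genes. The median log2 difference of the 9 members was 0.74, with 9 of 9 above 0, and that of all genes was -0.00. It was 0.56 without control-FMT replicate 2.

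In AOS-FMT against busulfan, edgeR called 0.0445% of all genes and no member, and limma-voom called no member. DESeq2 called 4 members: H2-Aa (adjusted p = 0.000504), Cd74 (adjusted p = 0.0293), H2-Ab1 (adjusted p = 0.0360) and H2-DMa (adjusted p = 0.0474), against 0.971% of all genes. At an unadjusted p under 0.05 edgeR gave 5 of 9 members, those 4 and H2-DMb1, all higher in AOS-FMT, against 7.8% of all genes in that direction. Without overlap and higher were 4 of 9 members, against 10.3% of all genes. The median of the 9 members was 0.87, with 9 of 9 above 0, and that of all genes was 0.00. It was 0.67 without AOS-FMT replicate 2.

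**Figure D2:**
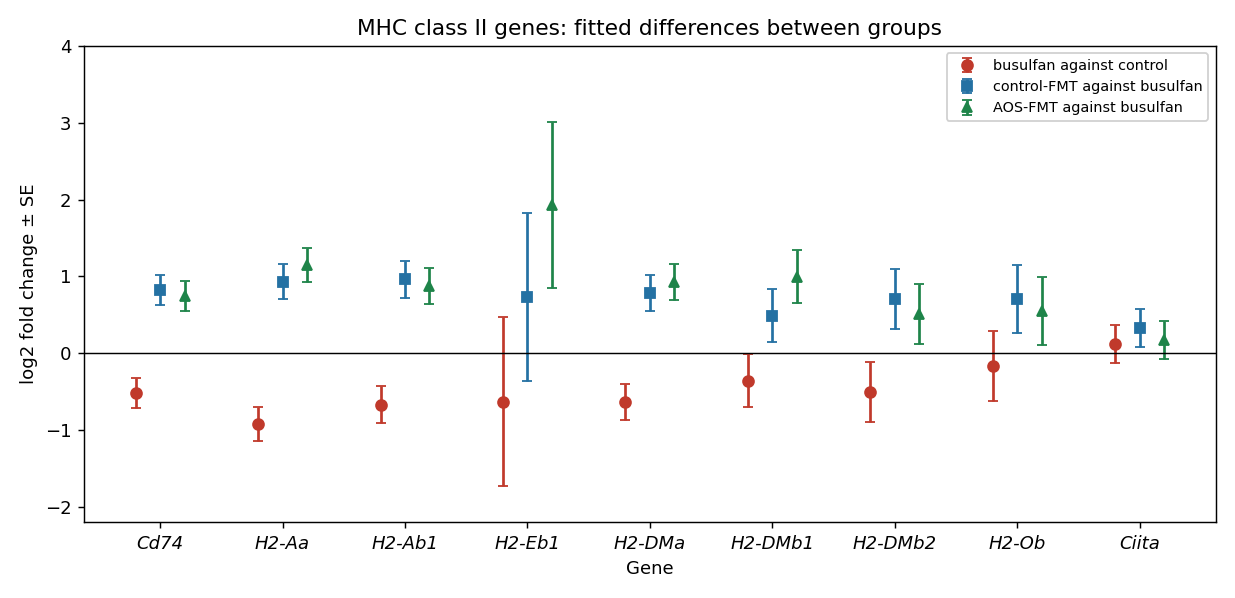
Fitted log2 fold change (vertical axis) with its SE for the 9 members tested, in busulfan against control (circles), control-FMT against busulfan (squares) and AOS-FMT against busulfan (triangles); the 3 comparisons share the busulfan libraries. Cd74, H2-Aa, H2-Ab1 and H2-DMa lie below 0 in the first comparison and above 0 in the other 2, and H2-Eb1 has SEs of 1.08 to 1.10, wider than those of the other members.

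The FMT groups were also compared with each other and with control. In AOS-FMT against control-FMT edgeR called 0.0297% of all genes and 0 members, and DESeq2 (0.237% of all genes) and limma-voom called 0 members too. With edgeR 0 members reached an unadjusted p under 0.05, against 6.23% of all genes in either direction, and 0 members had groups without overlap, against 13.8% of all genes. The differences ran from -0.19 ± 0.38 for H2-DMb2 to 1.197 ± 1.04 for H2-Eb1, and H2-Aa had 0.22 ± 0.22. The median of the 9 members was -0.08, and its sign turned under several alternatives: it was 0.26 without control-FMT replicate 2, 0.018 without AOS-FMT replicate 2, 0.051 without AOS-FMT replicate 3, 0.032 with H2-DMb1 and H2-DMb2 summed and 0.27 with the level of atrial transcripts as a covariate. Without control-FMT replicate 2, H2-Aa and H2-DMa reached an unadjusted p under 0.05, with a smallest adjusted p of 0.988, and without AOS-FMT replicate 1 H2-DMb1 did.

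In control-FMT against control and AOS-FMT against control, which share the control libraries, edgeR called 0.0% and 0.0815% of all genes. It called 0 members in both comparisons, as did limma-voom and DESeq2, the latter with 0.66% and 0.904% of all genes called, and with edgeR 0 members reached an unadjusted p under 0.05, against 8.2% and 8.87% of all genes in either direction. Without control-FMT replicate 3, Ciita and Cd74 reached it in the first comparison, and without AOS-FMT replicate 1 H2-DMb1 did in the second. The medians were 0.20 and 0.29, each with 9 of 9 members above 0. Without control-FMT replicate 2 the first was -0.027, without control-FMT replicate 3 it was 0.40 and without control replicate 3 it was 0.36. Without AOS-FMT replicate 2 the second was 0.16. On the CPM scale 1 member did not overlap in each. H2-Ob was higher in control-FMT, against 7.16% of all genes, and Ciita was higher in AOS-FMT, against 6.63% of all genes.

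The scale mattered for the comparison of AOS-FMT with control. In the authors' TPM, 6 of 9 members, Cd74, H2-Aa, H2-Ab1, H2-DMa, H2-DMb1 and Ciita, were higher in every AOS-FMT library than in any control library, against 13.0% of all genes, while on the CPM scale the first 5 overlapped. Mean TPM in AOS-FMT was 1.33 times control for Cd74, 1.35 times for H2-Aa, 1.79 times for H2-DMb1 and 1.60 times for Ciita. Ciita had 0.42, 0.59 and 0.50 TPM in control, 0.66, 0.50 and 0.49 TPM in busulfan, 0.91, 1.04 and 0.64 TPM in control-FMT and 0.80, 0.78 and 0.83 TPM in AOS-FMT. In TPM it stood above control without overlap in both FMT groups and above busulfan in AOS-FMT, while in CPM it did so for AOS-FMT against control only. In TPM 14.0% of all genes were higher without overlap in control-FMT against control, and 19.8% in AOS-FMT against busulfan.

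H2-Eb1, the I-E beta chain, did not follow the I-A chains. It had 9.75, 21.10 and 1.80 TPM in control, 1.39, 3.59 and 16.47 TPM in busulfan, 14.19, 2.32 and 21.08 TPM in control-FMT and 10.94, 37.10 and 38.51 TPM in AOS-FMT. Low and high libraries occurred within control, busulfan and control-FMT alike, and the highest library had 27.7 times the TPM of the lowest. The same span was 2.66 times for Cd74, 3.08 times for H2-Aa, 3.00 times for H2-Ab1 and 3.23 times for H2-DMa. Of the 12 libraries, 4 had fewer than 50 estimated counts of H2-Eb1 and 8 had 138 to 617.

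The partner chain of H2-Eb1 showed a wider split. H2-Ea (chromosome 17, 34341952 to 34344645), which is not among the 10 genes, is annotated as a transcribed pseudogene in the reference strain, since several mouse H2 haplotypes, the C57BL/6 one included, carry a defective copy and make no I-E. Its estimated counts in replicates 1 to 3 were 169, 7 and 13 in control, 2, 4 and 193 in busulfan, 223, 9 and 152 in control-FMT and 9, 502 and 221 in AOS-FMT. No library lay between 13 and 152: 1 control, 1 busulfan, 2 control-FMT and 2 AOS-FMT libraries were above this gap. Control replicate 2 and AOS-FMT replicate 1 combined a low H2-Ea count, 7 and 9, with 284 and 138 counts of H2-Eb1. The fitted differences of H2-Ea were 0.10 ± 1.83 in busulfan against control, 0.89 ± 1.77 in control-FMT against busulfan and 1.56 ± 1.75 in AOS-FMT against busulfan (edgeR adjusted p = 0.992, 0.999 and 0.702). An outbred stock can carry several H2 haplotypes, and reads of an allele unlike the reference can fail to align. The haplotypes of these mice and their part in the values of H2-Ea and H2-Eb1 were not tested. Nor was their part tested in the values of the other H2 members, H2-Aa and H2-Ab1 included, or in the ratios between them.

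**Figure D3:**
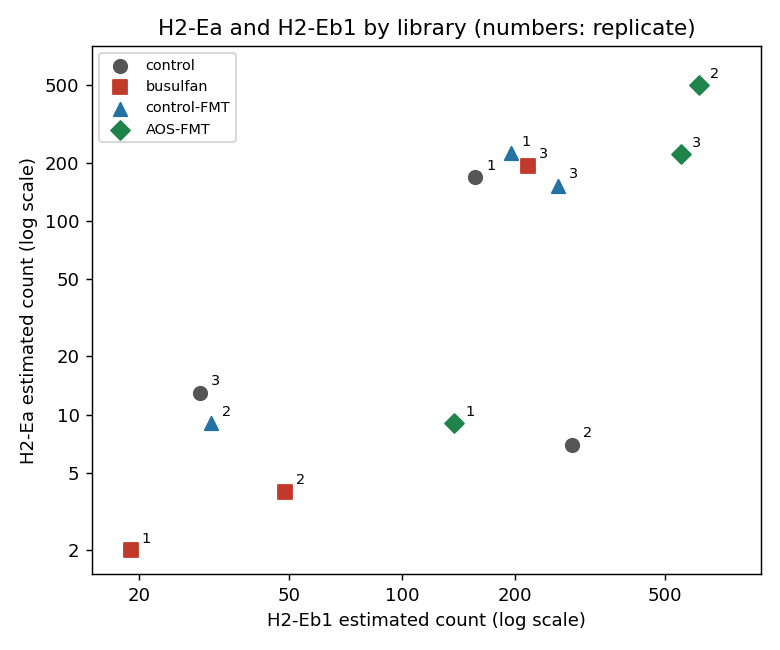
Estimated counts of H2-Eb1 (horizontal axis, log scale) and H2-Ea (vertical axis, log scale) in the 12 libraries; colour and shape give the group and the digit the replicate. H2-Ea counts fall at 2 to 13 or at 152 to 502, and libraries on either side occur in every group.

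H2-DMb1 and H2-DMb2, neighbouring and similar genes for the H2-DM beta chain, shared reads in the authors' counting. Only 2 of their 24 library values were whole numbers (within 1e-09), while the sum of both was whole (within 1e-06) in 12 of 12 libraries, so the values of each depend on how shared reads were divided. H2-DMb1 took 63.6%, 52.6% and 44.9% of the sum in control, 49.8%, 38.8% and 78.7% in busulfan, 56.8%, 48.1% and 53.8% in control-FMT and 48.8%, 70.2% and 69.4% in AOS-FMT. Within the busulfan group alone the share thus ran from 38.8% to 78.7%. The share also followed the split of H2-Ea counts across the groups. It was 53.8% to 78.7% in the 6 libraries with at least 100 counts of H2-Ea and 38.8% to 52.6% in the 6 libraries under 100. The part of H2 haplotypes in this share was not tested. As a sum they had 9.42, 7.98 and 10.1 CPM in control and 7.22, 6.36 and 6.85 CPM in busulfan. All 3 busulfan libraries were below all 3 control libraries, with a log2 difference of -0.43 ± 0.25 (edgeR adjusted p = 0.551). The sum was 7.33 to 14.6 CPM in control-FMT and 9.89 to 15.6 CPM in AOS-FMT, above every busulfan library, by 0.59 ± 0.25 and 0.80 ± 0.25 (edgeR adjusted p = 0.999 and 0.284). The sum was formed after the values had been seen.

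The 4 members that were lower in every busulfan library varied together over all libraries. Over the 12 libraries the 6 pairs among Cd74, H2-Aa, H2-Ab1 and H2-DMa had Pearson's r of 0.87 to 0.99 and Spearman's rho of 0.83 to 0.95 in log2 CPM; these libraries share the group differences above, so the values only describe them. H2-Eb1 had r of -0.43 to 0.48 with the other 8 members. The ratio of the invariant chain to the I-A beta chain, Cd74 over H2-Ab1 in TPM, was 2.59 to 3.35 in the 12 libraries.

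H2-Aa over H2-Ab1, the 2 chains of 1 molecule, was less even. The ratio in TPM was 1.51, 1.43 and 1.59 in control, 1.18, 1.28 and 1.38 in busulfan, 1.26, 1.21 and 1.30 in control-FMT and 1.37, 1.52 and 1.78 in AOS-FMT. Control lay above busulfan and above control-FMT without overlap, and AOS-FMT lay above control-FMT without overlap. The two-sided exact permutation p was 0.1 for each of these 3 comparisons, the smallest that 3 against 3 libraries allow, and 0.8 after Benjamini-Hochberg adjustment over the 24 ratio comparisons, so none passed. H2-DMa over H2-Aa was 0.0479 to 0.0721 in the 12 libraries. H2-Eb1 over H2-Ab1 ran from 0.0112 to 0.336.

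**Figure D4:**
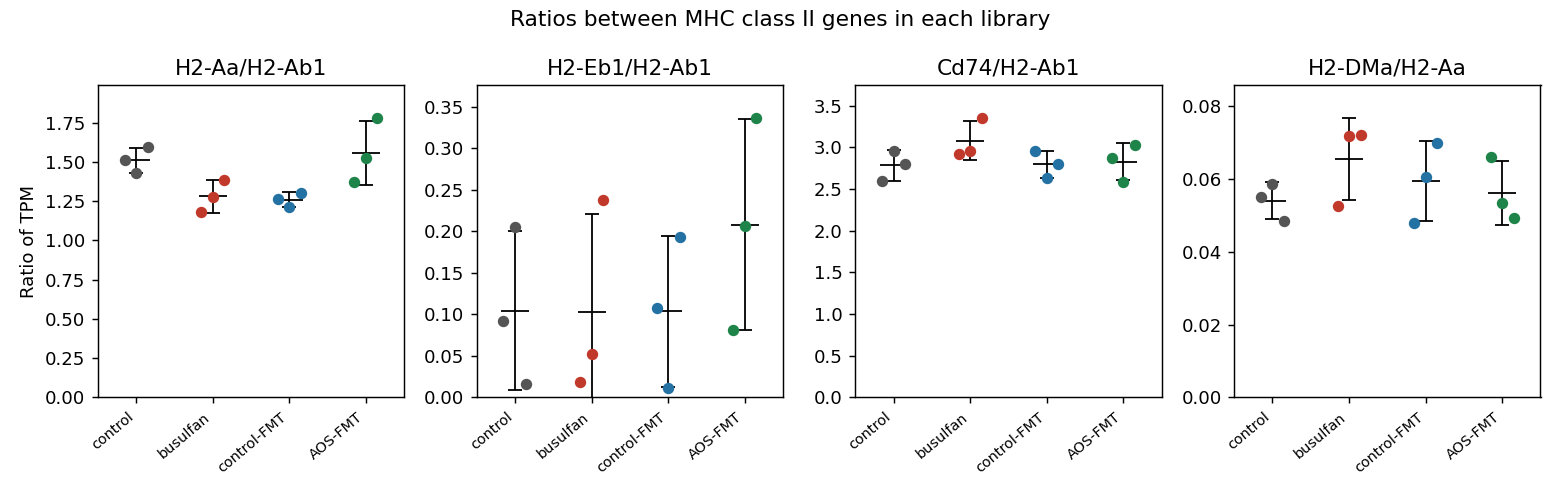
Ratio of TPM (vertical axes, from 0) for 4 pairs of members in each library by group; points are libraries in replicate order, the short line is the mean and the bar 1 SD (n = 3), with the bar that reaches below 0 ending at 0. H2-Aa over H2-Ab1 is 1.43 to 1.59 in control and 1.21 to 1.30 in control-FMT, and Cd74 over H2-Ab1 stays between 2.59 and 3.35.

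The other genes of the pathway were followed in lists. In none of 6 pathway lists did edgeR call a gene in busulfan against control or in either FMT group against busulfan. The counts of list genes at an unadjusted p under 0.05 given here and for the cell markers stand against these shares of all genes: 5.78% lower and 5.54% higher in busulfan against control, 1.76% higher and 0.89% lower in control-FMT against busulfan, and 7.8% higher and 5.85% lower in AOS-FMT against busulfan. Of 7 factors that bind class II promoters (Rfx5, Rfxank, Rfxap, Nfya, Nfyb, Nfyc and Creb1), 1 was lower in busulfan and 0 differed in the FMT groups at an unadjusted p under 0.05, and the medians were -0.07, -0.03 and 0.01 in the 3 comparisons in that order. Rfxank, an RFX subunit, had group means of 37.5 ± 6.22 (control; SD, n = 3), 30.5 ± 3.79 (busulfan), 27.8 ± 2.04 (control-FMT) and 34.7 ± 10.8 CPM (AOS-FMT), and Nfyc, an NF-Y subunit, 76.8 to 81.9 CPM as group means. Of 10 genes of interferon gamma signalling, which induces Ciita, 9 were tested, with medians of -0.08, 0.11 and 0.19; at that p, 0 differed in busulfan, 1 was higher in control-FMT and 2 were higher in AOS-FMT. Ifng itself stayed under 1 CPM. The receptor chain Ifngr1 had 45.4 ± 6.30 CPM in busulfan and 63.0 ± 6.02 in AOS-FMT, a log2 difference of 0.47 ± 0.11 (edgeR adjusted p = 0.234), and the factor Irf1 had 0.39 ± 0.13 (edgeR adjusted p = 0.296).

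Of 15 genes of endosomal processing and class II turnover, 3 were lower in busulfan than in control, 0 differed in control-FMT and 5 were higher in AOS-FMT than in busulfan at an unadjusted p under 0.05. The medians were -0.23, 0.13 and 0.27. Ctsh, a cathepsin, had 32.0 ± 7.70 CPM in busulfan (SD, n = 3), 55.5 ± 15.1 in AOS-FMT, 44.4 ± 6.64 in control-FMT and a mean of 49.9 CPM in control, and its difference of AOS-FMT from busulfan was 0.79 ± 0.22 (edgeR adjusted p = 0.279). Cd9, a tetraspanin, had 0.88 ± 0.32 in that comparison (edgeR adjusted p = 0.306). Among 4 tested ligands and partners of Cd74, 1 was higher in each FMT group at that unadjusted p, Cxcr4 in control-FMT (0.41 ± 0.16; edgeR adjusted p = 0.999) and Cd44 in AOS-FMT (0.71 ± 0.32; edgeR adjusted p = 0.358).

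Of 8 tested genes of class II recognition and costimulation, 2 were higher in busulfan than in control, 0 differed in control-FMT and 1 was higher in AOS-FMT than in busulfan at an unadjusted p under 0.05. The last was Cd83, a surface protein of mature antigen-presenting cells that stabilizes class II, at 7.64 ± 1.21 CPM in busulfan and 12.5 ± 0.774 in AOS-FMT (0.71 ± 0.22; edgeR adjusted p = 0.286). Icosl, a costimulatory ligand, had 0.56 ± 0.26 there (edgeR adjusted p = 0.368). The 13 genes of MHC class I and its loading, which present peptides to CD8 T cells, had medians of 0.03, -0.22 and 0.02, against -0.52, 0.74 and 0.87 for class II. At an unadjusted p under 0.05, 1 of the 13 was lower in busulfan, 0 differed in control-FMT and 3 were higher in AOS-FMT, among them the chaperone Pdia3 (0.31 ± 0.10; edgeR adjusted p = 0.296) and the immunoproteasome subunit Psmb8 (0.54 ± 0.20; edgeR adjusted p = 0.306).

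**Figure D5:**
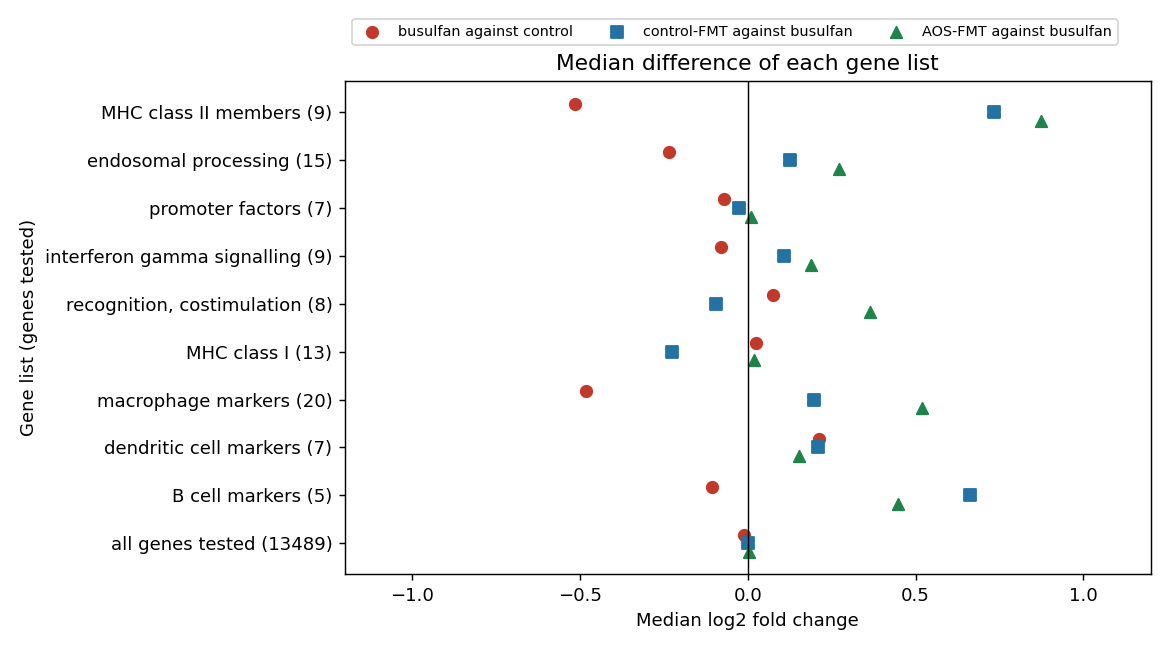
Median log2 fold change (horizontal axis) of the 9 members tested, of 5 pathway lists, of 3 lists of cell markers and of all genes tested, in busulfan against control, control-FMT against busulfan and AOS-FMT against busulfan; the number of genes tested stands beside each name. Class II has medians of -0.52, 0.74 and 0.87, class I 0.03, -0.22 and 0.02, and macrophage markers -0.48, 0.20 and 0.52.

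In whole hearts, fewer cells that carry class II and less class II RNA per cell cannot be told apart. Markers of macrophages moved in part with the members, and so did those of fibroblasts, given below. Their 20 genes, all tested, had a summed level of 625 to 870.3 CPM in busulfan libraries, against 966 to 1300.0 (control), 747 to 1304 (control-FMT) and 949 to 1360 (AOS-FMT), with no marker under 1 CPM everywhere. Control-FMT replicate 2 and AOS-FMT replicate 2, the highest libraries of Cd74, were the highest of their groups here as well. At an unadjusted p under 0.05, 9 of 20 were lower and 1 higher in busulfan than in control, 2 were higher in control-FMT and 12 in AOS-FMT than in busulfan, and edgeR called 0 in each, while the shares of all genes were 5.78% lower and 5.54% higher, 1.76% higher and 7.8% higher. The haemoglobin scavenger receptor Cd163, typical of resident macrophages, stood at 18.3 ± 1.56 CPM in control libraries, 4.64 ± 1.86 after busulfan, 4.19 ± 2.78 with control-FMT and 8.44 ± 0.675 with AOS-FMT, while Ccr2, a receptor of monocyte-derived cells, had 6.50 ± 2.53, 4.30 ± 0.344, 7.77 ± 2.13 and 8.33 ± 3.04. These 2 genes were chosen after their values had been seen and do not stand for the list. Of the 20 markers, 17 were below 0 in busulfan against control. Against busulfan, 15 were above 0 in control-FMT, where the mean of Cd163 was not, and 18 in AOS-FMT. The 8 monocyte markers, 7 of them tested, had medians of -0.60, 0.32 and 0.96 in the 3 comparisons. Their summed level was 206 to 210.2 CPM in control, 152 to 303 in busulfan, 187 to 246 in control-FMT and 373 to 396 in AOS-FMT, so busulfan and control overlapped and AOS-FMT stood above all other libraries. The part of macrophage or monocyte number in the class II levels was not tested.

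Markers of dendritic cells and B cells, which can also carry class II, were lower in summed level than those of macrophages, as were T and NK cell markers. The 13 dendritic cell markers summed to 132 to 158 CPM (control), 148 to 195 (busulfan), 182 to 236 (control-FMT) and 184 to 196 (AOS-FMT), so they were not lower in busulfan than in control; 7 were tested, and the defining genes Flt3, Xcr1, Clec9a, Cd209a and Batf3 stayed under 1 CPM in every library. The 11 B cell markers in the table summed to 6.87 to 13.2 CPM over all libraries, and 6 of them, among them Ms4a1 and Pax5, stayed under 1 CPM. None of the dendritic or B cell markers was at 0 in every library. The 13 T and NK cell markers in the table summed to 4.71 to 7.14 CPM in control, 5.57 to 8.23 in busulfan, 5.52 to 16.7 in control-FMT and 7.80 to 26.5 in AOS-FMT; the 6 tested had medians of 0.15, 0.71 and 1.15.

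Other tissue content differed between the libraries too. Atrial transcripts, as the mean log2 CPM of 4 genes, were at 6.08, 10.3 and 9.88 in control, 0.941, 4.37 and 7.30 in busulfan, 4.07, 1.36 and 6.45 in control-FMT and 6.60, 10.4 and 9.496 in AOS-FMT. Control-FMT replicate 2, with the highest Cd74, had the second-lowest atrial value, and AOS-FMT replicate 2 the highest. With this score as a covariate, 5 of 9 members were lower in busulfan than in control at an unadjusted p under 0.05, against 2.46% of all genes in that fit, 4 were higher in control-FMT (2.39% of all genes) and 5 in AOS-FMT (2.11% of all genes) than in busulfan, and edgeR called 0 members. Beside Cd74, H2-Aa, H2-Ab1 and H2-DMa, both counts of 5 held H2-DMb2. In AOS-FMT against busulfan without the covariate, H2-DMb1 stood in its place. Liver transcripts summed to 59.8 to 154 CPM in control, 60.2 to 88.3 CPM in busulfan, 68.0 to 111 CPM in control-FMT and 135 to 857 CPM in AOS-FMT. The median of the 13 liver genes was 2.44 in busulfan against control, with 10 of 13 above 0, but the summed levels of these groups overlapped. At an unadjusted edgeR p under 0.05, 1 of 13 was higher and 1 lower there, against 5.54% and 5.78% of all genes. Against busulfan the liver median was 0.28 in control-FMT and 3.21 in AOS-FMT. Mesothelial markers, 8 genes, had medians of -2.15, 0.91 and 1.98 in these comparisons. Fibroblast transcripts summed to 1805 to 2351 CPM with busulfan, 2430 to 3995 for control, 2506 to 2916 with control-FMT and 2581 to 4697 with AOS-FMT. The 8 fibroblast markers had medians of -0.64, 0.29 and 0.75. With edgeR at an unadjusted p under 0.05, 5 of 8 were lower in busulfan than in control (5.78% of all genes). Against busulfan, 1 of 8 was higher in control-FMT (1.76% of all genes) and 7 of 8 in AOS-FMT (7.8%), with 0 called. The part of fibroblasts in the class II levels was not tested. The libraries held 11333650 to 14335688 estimated counts each, with TMM factors of 0.908 to 1.08. The heart muscle genes Myh6, Tnnt2 and the other 6 of their list were abundant in every library, at a summed 84315 to 123615 CPM in control, 114000 to 136422 CPM in busulfan, 101414 to 107067 CPM in control-FMT and 78454 to 100452 CPM in AOS-FMT. Their medians were 0.20, -0.22 and -0.48, against the direction of class II in each comparison, with 6 of 8 lower in AOS-FMT than in busulfan at an unadjusted p under 0.05 and 0 called by edgeR.

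The genes whose pattern over the 12 libraries was most like that of the members were taken from the 10504 other genes with a mean of at least 5 CPM. Likeness was Pearson's r to the mean centred log2 CPM of the 9 members. That mean was 0.04, -0.04 and -0.09 in control, -0.59, -0.59 and -0.42 in busulfan, 0.13, 0.39 and 0.03 in control-FMT and 0.16, 0.62 and 0.37 in AOS-FMT. It weighs all 9 members alike, so the wide swings of H2-Eb1 within groups enter it. Control replicate 3 had the lowest mean of its group, with the highest Cd74 (288 CPM) but only 2.30 CPM of H2-Eb1. The 8 most alike were Sh3gl1 (r = 0.87), Nfe2l2 (0.87), Aldh3a2 (0.86), Atp6ap2 (0.85), Chst12 (0.85), Cebpa (0.85), Cd52 (0.84) and Hp (0.84), with Spearman's rho of 0.76 to 0.92. Cd52, a surface glycoprotein of leukocytes, had 3.47 ± 0.926 CPM with busulfan, 5.27 ± 0.911 for control, 5.81 ± 2.44 with control-FMT and 7.65 ± 3.40 with AOS-FMT. Hp, the haemoglobin-binding plasma protein haptoglobin, was the 1 gene of these 8 that edgeR called, and is also a marker in the monocyte list, at 1.96 ± 0.451 CPM in busulfan and 10.03 ± 3.69 CPM in AOS-FMT (log2 difference 2.35 ± 0.36; edgeR adjusted p = 0.0457). Its adjusted p stayed under 0.05 without control replicate 1, control-FMT replicate 1 or 3, or AOS-FMT replicate 1, and was 0.0584 to 0.329 in the other 8 fits that left out 1 library each. The call was also lost with limma-voom (adjusted p = 0.218), with only the 6 libraries compared (edgeR adjusted p = 0.115) and with the atrial covariate (edgeR adjusted p = 0.893, log2 difference 1.58). In the same comparison 12 of 13 liver genes were higher in AOS-FMT at an unadjusted edgeR p under 0.05, with a median of 3.21, against 7.8% of all genes. The part of liver content in the level of Hp was not tested. The likeness values describe these libraries only.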

How the data were processed

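The deposited table gives, per the file headers, an estimated count, a TPM and an FPKM value for each gene in each of 12 libraries. Per the submitters' processing notes the authors used Bowtie 0.12.2 and the build mm10; the counting tool and the annotation were not given in the sources used here. Of the deposited estimated counts 94.7% to 95.3% per library were whole (within 1e-09). They were rounded and tested with edgeR 4.0.16 (R 4.3.3; filterByExpr, TMM, robust quasi-likelihood, group only, all 12 libraries, Benjamini-Hochberg over 13489 genes, adjusted p under 0.05); the common biological coefficient of variation was 18.6%. DESeq2 1.42.0 and limma-voom (limma 3.58.1) were alternatives. TPM as deposited served for levels between genes; the deposited FPKM values were not used. Totals of 11333650 to 14335688 set the counting precision, and replicate libraries differed by more than sampling noise (chi-square per degree of freedom 8.88 to 71.5).

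The members and lists were chosen with earlier results of these data known. The genes named were all members, from each pathway list those called and the 2 with the smallest p in an FMT group against busulfan, and the 8 genes most like the members, predicted genes skipped. Ratios of TPM were tested by exact permutation. Names and coordinates came from RefSeq GRCm38.p6 tables. No entry for Cd74, H2-Ab1 or Ciita was used from the promoter table. The fit was tested on simulated data.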

Additional observations from a re-analysis of the deposited data

How the results depend on the processing

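With edgeR, 0 members were called in all 6 comparisons under every alternative run (no filter on low counts, RLE scaling, library size only, only the libraries compared, replicate block, atrial covariate, each library left out, H2-DMb1 and H2-DMb2 summed), and also with limma-voom. DESeq2 called 1 member in busulfan against control and 4 in AOS-FMT against busulfan, where it called 0.882% and 0.971% of all genes against 0.0593% and 0.0445% with edgeR; the cause was not tested. The atrial covariate took the median of the members to -0.72 in busulfan against control and, with a change of sign, to 0.27 in AOS-FMT against control-FMT, where summing H2-DMb1 and H2-DMb2 gave 0.032, and in control-FMT against control to 0.069. Leaving out each library in turn, the medians ran from -0.62 to -0.45 in busulfan against control, from 0.56 to 0.86 in control-FMT and from 0.67 to 1.01 in AOS-FMT against busulfan, from -0.21 to 0.26 in AOS-FMT against control-FMT, and from -0.027 to 0.40 in control-FMT and 0.16 to 0.34 in AOS-FMT against control. The extremes at 0.56, 0.26 and -0.027 came without control-FMT replicate 2, and those at 0.67 and 0.16 without AOS-FMT replicate 2. In busulfan against control, the signs of 3 members that had not passed the test turned. Ciita had -0.21 and H2-Eb1 0.57 with the atrial covariate, and leaving out each library Ciita ran from -0.061 (without busulfan replicate 1) to 0.23, H2-Eb1 from -2.09 to 0.042 (without control replicate 2) and H2-Ob from -0.39 to 0.0082 (without busulfan replicate 3). Scaling by library size only shifted the median of all genes to 0.14 in AOS-FMT against busulfan, where the members had 1.01.

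The labels give groups and no batch, so the samples were not treated as paired in the main fit. The replicate numbers are shared between groups and were tried as a block. Of 18 same-numbered pairs, 10 had a correlation of deviations over 0.1 (range -0.18 to 0.43), and 5 of 12 libraries were closest to their own number. With the block edgeR called 14 genes in AOS-FMT against busulfan (6 without it) and 25 in AOS-FMT against control (11 without it). In control-FMT against busulfan it called 0 in both fits. With the replicate block the medians were -0.59, 0.76 and 0.85 in busulfan against control, control-FMT against busulfan and AOS-FMT against busulfan, and 0 members were called in each; in control-FMT against control the median was 0.11. Depth limits H2-Oa and H2-Ob, with as few as 0 and 6 estimated counts in a library. H2-Ea had as few as 2, in busulfan replicate 1, but 193 in busulfan replicate 3, at like totals of 12132064 and 12220454 estimated counts.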
